A study of Mus musculus with 18 samples.

Results

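B cells with transcripts of Fcer2a were counted and compared among single cells from the lung, the spleen and an implanted biomaterial scaffold. The cells were chosen by a gate on their transcripts. A barcode passed when it held at least 2 of the 6 B cell genes Cd79a, Cd79b, Ms4a1, Pax5, Ebf1 and Bank1, at least 1 unique molecular identifier (UMI, the tag that marks 1 captured transcript) of Fcer2a, and no Cd3e or Cd3g. In all, 849 of 19761 kept barcodes passed, 640 of them in spleen, 200 in lung and 9 in scaffold. Barcodes were kept with 200 or more genes and under 20% mitochondrial UMIs. The mice were female BALB/cJ animals. Tumour-bearing mice had received 2000000 cells of 4T1-tdTomato-luc2, a labelled line of the 4T1 mammary carcinoma, in the fourth right mammary fat pad, and healthy mice had received none. Tissue was taken at day 7, 14 or 21 after injection, from mice of 9, 10 and 11 weeks of age. Each of the 18 libraries, made by the droplet method Drop-seq, stands for 1 tissue, status and day. The number of animals behind a library is not given, so p-values measure the spread between libraries, which may be technical in part.

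Fcer2a encodes CD23, the low-affinity receptor for immunoglobulin E, a lectin-like protein on the surface of resting mature B cells. In the mouse, CD23 marks the B cells that recirculate through blood, spleen and lymph nodes and settle in follicles, and it is low or absent on marginal zone B cells, B1 cells and plasma cells. Interleukin 4, acting through the transcription factor STAT6, is known to raise CD23. The receptor takes up complexes of antigen and immunoglobulin E.

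Before any result, the libraries of day 21 need to be set apart. A barcode found in 2 or more libraries of a day was kept only where its UMIs were at least 5 times those of the next library. At day 21 this rule left 27 of 511 barcodes in the healthy spleen and 235 of 1029 in the healthy lung, against 1135 of 1175 in the healthy spleen of day 14. Without the rule the healthy spleen of day 21 held 0 gated cells in 511 barcodes, and the healthy lung 0 in 1029, so the count of gated cells there was 0 with and without the rule. A healthy spleen with no such cell stands apart from the healthy spleens of days 7 and 14, and the share comparisons over pairs are given with and without day 21. Among the gated barcodes, 13 of 338 at day 7, 1 of 500 at day 14 and 0 of 11 at day 21 were also seen in another library of the same day. Library totals ran from 292765 to 4530115 UMIs, and 27 to 2598 barcodes were kept per library. In the 8 lung and spleen libraries of days 7 and 14 the gated cells held medians of 654 to 1714 UMIs, with 8.57% to 12.7% of UMIs mitochondrial and 15.5% to 19.5% from ribosomal protein genes.

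The gate found B cells by the genes it used, and this is a description only. Cd79a, a signalling chain of the B cell receptor, was detected in 80.0% of gated barcodes, Ms4a1 (CD20) in 76.1%, Bank1, a B cell scaffold protein, in 55.5% and Pax5, the factor that fixes B cell identity, in 45.0%. Most cells passed on few Fcer2a transcripts: 472 of 849 barcodes held 1 UMI, 187 held 2, and the highest count was 15. T cell barcodes were those with Cd3e or Cd3g and none of the B cell genes of the gate. Fcer2a, which they should lack, was detected in 14 of 1161 (1.21%, exact 95% interval 0.661 to 2.01, median 862 UMIs). Barcodes with Cd3e or Cd3g and any of those B cell genes were not counted there, so this background may be too low. Among all barcodes that met the B cell conditions Fcer2a was detected in 849 of 2168 (39.2%, interval 37.1 to 41.3, median 807.5 UMIs). That was above the share in these T cell barcodes at similar depth. Such intervals cover counting error only. Just inside the gate, 192 barcodes held exactly 2 of the B cell genes. They had a median of 680.5 UMIs, 14249 CPM (UMIs of a gene per 1000000 UMIs of the summed cells) of Cd74, the invariant chain of MHC class II, and 11365 CPM of S100a8 plus S100a9, the subunits of the neutrophil protein calprotectin. Just outside it, 120 barcodes with Fcer2a and 1 B cell gene had a median of 512 UMIs, 10004 CPM of Cd74 and 47113 CPM of S100a8 plus S100a9. A further 28 barcodes met the B cell conditions but held Cd3e or Cd3g.

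Cd74 and genes of naive follicular cells, none of which the gate used, were also detected. Cd74 was detected in 99.5% of the 849 barcodes and Ccr7, the receptor for the T zone chemokines, in 17.0%. Cxcr5, which guides B cells into follicles, was found in 12.5% and Icosl, the ligand of the T cell costimulator ICOS, in 12.0%. Fcer2a-negative B cells held Cd74 in 94.8%, Ccr7 in 10.9%, Cxcr5 in 7.20% and Icosl in 5.38%, with depth not matched. Genes listed for other B cell states ranged widely. The marginal zone genes Cd9, Cd1d1 and S1pr3 were detected in 2.59%, 1.88% and 1.65%, Igj, the joining chain made by antibody-secreting cells, in 3.18%, and the proliferation gene Mki67 in 2.59%. In Fcer2a-negative B cells the same genes were detected in 3.94%, 2.20%, 1.59%, 2.88% and 4.70%. Other members of the marginal zone and transitional lists had more UMIs in all gated cells, 360 of Mzb1, 297 of Cd24a and 210 of Vpreb3, than Ccr7 with 199, Cxcr5 with 125 and Icosl with 119. The early B cell genes Rag1, Igll1 and Dntt had 0 UMIs in all gated cells of lung and spleen. Ighd and Cr2 were not found among the symbols of the files and are not analysed here. Genes of other cell types were also present: 31 of 849 barcodes held Cd3d or Trbc2, and in 48 calprotectin made up 1% or more of all UMIs. The macrophage gene Lyz2 was detected in 16.5% and Hbb-bs, a haemoglobin chain of red blood cells, in 14.6%. The summed neutrophil list reached 64701 CPM in the gated cells of the tumour-bearing spleen of day 14, above the 26207 CPM of the MHC class II list there, and 11200 CPM in the tumour-bearing lung of day 14. The erythroid list reached 20829 CPM in that lung library, where 1 of 18 gated barcodes held 190 of the 195 Hbb-bs UMIs. Of 7 genes each listed for NK cells, dendritic cells and stroma, 1 (Ncr1), 1 (Siglech) and 2 (Col3a1 and Cxcl13) were at 0, and those lists summed to at most 50.7, 70.0 and 76.2 CPM in any of these libraries.

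The letters upstream of Fcer2a are shown because its transcript defines these cells. RefSeq (GRCm38.p6) places 3 starts for the gene, on the minus strand of chromosome 8. The stretch from 250 bases before to 50 bases after each was searched on both strands for the STAT6 palindrome (TTC, any 4 bases, GAA), 1 of the sites through which interleukin 4 is known to act. A STAT6 palindrome lay in 1 of the 3 stretches, at chr8:3690812-3691111, printed 5′ to 3′ with the match in capitals.
Fcer2a, minus strand: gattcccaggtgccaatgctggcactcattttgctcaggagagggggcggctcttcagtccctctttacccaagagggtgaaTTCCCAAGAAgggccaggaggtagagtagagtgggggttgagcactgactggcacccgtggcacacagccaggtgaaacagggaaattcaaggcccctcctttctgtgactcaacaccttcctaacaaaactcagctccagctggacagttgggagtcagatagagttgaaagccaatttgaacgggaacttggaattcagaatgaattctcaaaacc
Of 32851 such stretches in the RefSeq table, 2284 (6.95%) held the palindrome. The match describes the letters only.

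The first comparison asked where the cells were found. Fcer2a-positive B cells made up the highest shares in the healthy spleen, 72 of 331 kept barcodes at day 7 (21.8%) and 269 of 1135 at day 14 (23.7%). Healthy lung held 50 of 587 (8.52%) and 99 of 1070 (9.25%) on the same days. In tumour-bearing mice the spleen held 178 of 1018 (17.5%) at day 7, 114 of 2598 (4.39%) at day 14 and 7 of 1465 (0.478%) at day 21. The tumour-bearing lung held 33 of 929 (3.55%) at day 7 and 18 of 931 (1.93%) at day 14. At day 21 the counts were 0 of 27 in healthy spleen, 0 of 235 in healthy lung and 0 of 2353 in tumour-bearing lung, which allow shares of up to 11.1%, 1.28% and 0.127%. Over the 6 pairs of the same status and day, spleen exceeded lung in 5 pairs and tied at 0 in the other. The mean difference was 7.42 percentage points (SD 7.12, n = 6 pairs), with a 2-sided exact sign-flip permutation p of 0.0625 and 0.25 after adjustment over the 4 share comparisons. With 1 tied pair this is the smallest p those pairs can give. Without day 21 spleen was higher in 4 of 4 pairs, by 11.0 points, where an exact test of 4 pairs cannot go below 0.125.

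**Figure D1:**
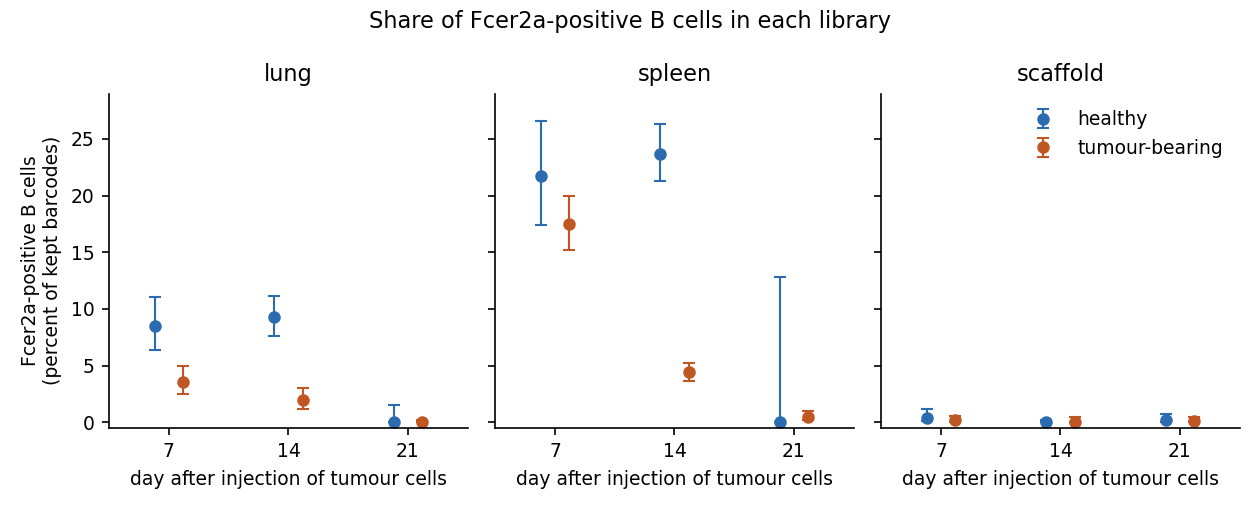
Percent of kept barcodes that were Fcer2a-positive B cells (vertical axis) by day in lung, spleen and scaffold. Each point is 1 library (blue healthy, orange tumour-bearing) with its exact 95% binomial interval, which covers counting error only. The healthy spleens of days 7 and 14 stood at 21.8% and 23.7%, and the 6 scaffold libraries were at 0.402% or lower.

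Tumour-bearing libraries held lower shares than the healthy library of the same tissue and day in 4 of 6 pairs, higher in 1 and equal at 0 in 1. The mean difference was -5.90 percentage points (SD 7.22, n = 6 pairs, exact sign-flip permutation p = 0.125, adjusted 0.25). In lung the means were 5.92% ± 5.14 (SD, n = 3) in healthy and 1.83% ± 1.78 (n = 3) in tumour-bearing mice, with an exact permutation p of 0.4. In spleen they were 15.2% ± 13.2 and 7.45% ± 8.91 (n = 3 each, exact permutation p = 0.5). A test of 3 against 3 cannot go below 0.1. The single tumour-bearing sample above its healthy pair was the spleen of day 21, whose pair is the healthy library with 27 barcodes; without day 21 the tumour-bearing share was lower in 4 of 4 pairs, by a mean of 8.97 points (difference -8.97, exact permutation p = 0.125). Cells rich in calprotectin moved with status and enter the denominator. S100a8 and S100a9 made up 134422 CPM of all UMIs in the tumour-bearing spleen of day 14 and 2882 CPM in the healthy one. Among barcodes in which calprotectin made up under 1% of UMIs, the share in that tumour-bearing spleen was 7.98% against 24.2% in the healthy one, and the mean difference over 6 pairs was -4.10 points (exact permutation p = 0.125). How much of the lower shares goes with these cells was not tested further.

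Scaffolds held almost none of these cells. Counts were 3 of 747, 0 of 1634 and 3 of 1279 barcodes in healthy mice at days 7, 14 and 21, and 2 of 1334, 0 of 779 and 1 of 1309 in tumour-bearing mice. The shares lay between 0% and 0.402%, and the 2 zeros allow up to 0.184% and 0.385%. Barcodes that met the B cell conditions with or without Fcer2a numbered 32 in all 6 scaffolds, against 1606 in spleen and 530 in lung. Scaffold means were 0.212% ± 0.202 and 0.0754% ± 0.0750 (SD, n = 3 each, exact permutation p = 0.4), so no difference by status was detectable at this number of libraries.

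Whether Fcer2a was gained or lost within the B cells themselves was examined at equal depth, since a deeper barcode shows a rare transcript more often. Each barcode was thinned to 400 UMIs before the gate and shallower ones were left out, 42 to 415 in the lung and spleen libraries of days 7 and 14. Fcer2a was then seen in 22 of 81 B cells (27.2%) and 101 of 385 (26.2%) in healthy spleen at days 7 and 14, and in 50 of 234 (21.4%) and 47 of 213 (22.1%) in tumour-bearing spleen. In lung it was seen in 11 of 78 (14.1%) and 46 of 159 (28.9%) in healthy mice and in 13 of 51 (25.5%) and 6 of 21 (28.6%) in tumour-bearing mice. Those 8 shares lay between 14.1% and 28.9%, and all but the healthy lung of day 7 were at 21.4% or higher. At day 21 the tumour-bearing spleen gave 3 of 27, and the other 3 libraries held 1 to 5 B cells and none with Fcer2a. Unthinned shares ran from 26.5% to 53.3% in the same 8 libraries. Spleen minus lung was 1.81 points (SD 8.26, n = 6 pairs, exact permutation p = 0.625) and tumour-bearing minus healthy was 2.03 points (SD 7.48, n = 6 pairs, exact permutation p = 0.5). Neither direction held up: spleen minus lung was -0.0669 points without day 21, and tumour-bearing minus healthy was -3.40 points unthinned. B cells with or without Fcer2a made up 38.0% of kept barcodes in the tumour-bearing and 40.8% in the healthy spleen at day 7, and 16.6% and 52.5% at day 14. Over the 3 days an exact permutation test of these B cell shares by status gave p = 0.2 in spleen and p = 0.3 in lung (n = 3 against 3).

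**Figure D2:**
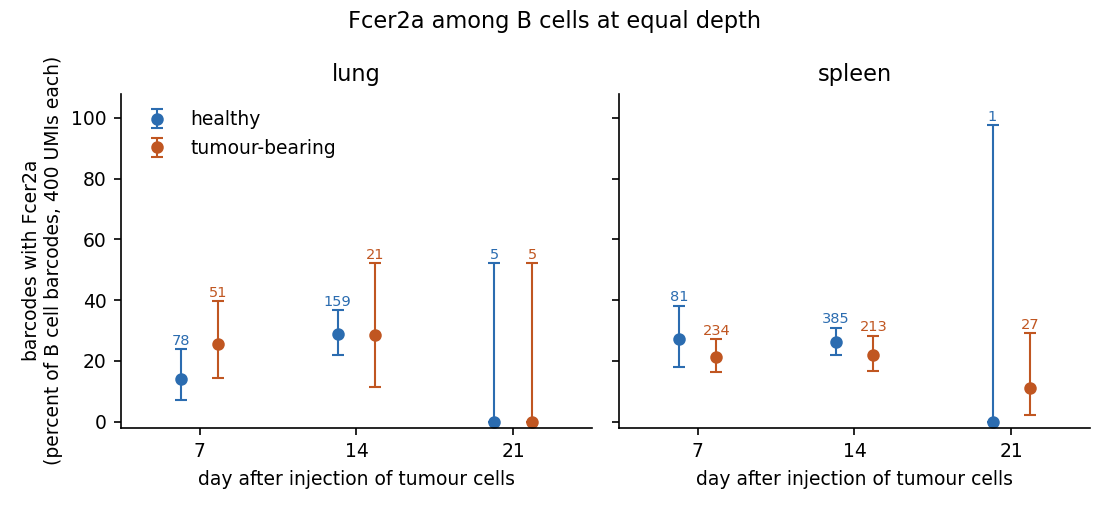
Percent of B cell barcodes with an Fcer2a transcript (vertical axis) after thinning each barcode to 400 UMIs, by day in lung and spleen. Points are libraries (blue healthy, orange tumour-bearing) with exact 95% binomial intervals, and the numbers above them count the B cells. The 8 libraries of days 7 and 14 lay between 14.1% and 28.9%, and those of day 21 rest on 1 to 27 cells.

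Gene levels of the gated cells in spleen and lung were compared in counts summed per library. The 7 libraries with 20 or more gated cells entered the model (3 of lung, 4 of spleen, all of days 7 and 14), with day and status as terms. The tumour-bearing lung of day 14 had 18 gated cells and was left out, and its values are given for description. Of 2373 genes tested with edgeR's quasi-likelihood method, 3 (0.126%) passed an adjusted p of 0.05, 1 higher in spleen (0.0421%) and 2 lower (0.0843%). The immunoglobulin lambda variable gene Iglv1 was higher in spleen, and Scgb1a1, the secretoglobin of airway club cells, and the nuclear RNA Malat1 were lower. With day left out of the model edgeR called 0 genes, with 106 at an unadjusted p under 0.05. Of the genes of B cell receptor signalling 17 were tested, of the follicular list 11, of homing 12, of survival 7 and of B cell transcription factors 12, and 0 of each passed in edgeR, with 1, 2, 2, 0 and 0 at an unadjusted p under 0.05.

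Iglv1 encodes a variable segment of the lambda light chain. It stood at 68.4, 25.4 and 107 CPM in healthy lung of day 7, healthy lung of day 14 and tumour-bearing lung of day 7, and at 1159, 215, 414 and 43.7 CPM in healthy spleen of days 7 and 14 and tumour-bearing spleen of days 7 and 14. The fitted difference was 3.25 on the log2 scale (SE 0.45, edgeR adjusted p = 0.00896), higher in spleen in 3 of 3 matched pairs, although the tumour-bearing spleen of day 14 lay below 2 of the lung libraries. Few cells carried it: in the healthy spleen of day 7, 3 of 72 barcodes held 86, 61 and 38 of the 198 Iglv1 UMIs. With all shared barcodes left out the difference was 1.79 and the edgeR adjusted p was 0.911. With each cell thinned to 400 UMIs they were 2.38 and 0.626. Leaving out the healthy spleen of day 7 gave an adjusted p of 0.161, and leaving out the healthy lung of day 7 or of day 14 gave 0.894 and 0.206.

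Scgb1a1 had 0 UMIs in all gated spleen cells and 92 in lung (edgeR adjusted p = 0.00376). Of those, 87 came from the healthy lung of day 7, where 37 of 50 gated barcodes held at least 1. Summed over the 3 lung libraries the level was 451 CPM, at least 134-fold higher than the 3.36 CPM that 3 counts would give over the spleen libraries, and without the healthy lung of day 7 it was 43.1 CPM, at least 12.8-fold higher. DESeq2 gave this gene an adjusted p of 0.999. Without the healthy lung of day 7 the gene had too few counts to be tested, and likewise when barcodes needed 400 genes or 3 of the 6 B cell genes. Without the healthy spleen of day 7 the edgeR adjusted p was 0.254, and without day 14 it was 0.0502. No other lung epithelium gene of the 7 listed passed the filter, and the list summed to 1037 CPM in the gated cells of that library and to 102 and 134 CPM in the other lung libraries tested. In the spleen libraries the list summed to 0 to 3.31 CPM. In the tumour-bearing lung of day 14, which was not tested, the list was at 0 CPM. Most of the signal thus came from 1 lung library, the healthy lung of day 7. There the list also summed to 899 CPM in Fcer2a-negative B cells. The source of the signal was not tested.

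Malat1 was detected in every gated cell. Levels were 22777, 47898 and 23032 CPM in the lung libraries and 13633, 22864, 16429 and 24791 CPM in spleen, in the order given for Iglv1. Spleen was lower in 3 of 3 matched pairs, by -0.77 on the log2 scale (SE 0.13, edgeR adjusted p = 0.0298), while the ranges overlapped. The call was lost under 11 of 23 alternatives, among them leaving out the healthy lung of day 14 (edgeR adjusted p = 0.999), whose level was the highest, the healthy lung of day 7 (0.894) and the healthy spleen of day 7 (0.233).

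None of the 11 follicular genes tested passed between spleen and lung, beside 0.126% of all 2373 genes, a share at which lists this short can hold none. Cd55, the complement regulator also called decay-accelerating factor, was at 1584, 1270 and 1336 CPM in lung and at 697, 838, 1010 and 525 CPM in spleen. The fitted difference of -0.78 (SE 0.23) did not pass, with an edgeR adjusted p of 0.796. Over the 11 follicular genes tested the median difference was -0.13, beside 0.02 over all genes, and 4 of 11 were on the higher side in spleen. Genes of B cell receptor signalling had a median of 0.03 with 11 of 17 on the higher side.

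MHC class II genes, which present antigen to helper T cells, were measured at 10 of 10 members, and 1 of the 10 was on the higher side in spleen. Their median difference was -0.21, from -0.45 to 0.02, and 0 of 10 passed in edgeR (2 at an unadjusted p under 0.05). Of all 2373 genes 0.126% passed, a share at which lists this short can hold none. Cd74 was at 10254, 16148 and 12264 CPM in lung and 7762, 13223, 10216 and 15146 CPM in spleen, a difference of -0.32 (SE 0.12, edgeR adjusted p = 0.872). H2-Aa, the alpha chain of I-A, differed by -0.35 (SE 0.16, adjusted p 0.872 in edgeR). Within each tissue and status both genes were lower at day 7 than at day 14, which was not tested. Among 13 immediate early genes tested 0 passed in edgeR (4 at an unadjusted p under 0.05), beside the same 0.126% of all genes. On the higher side in spleen were 7 of the 13. Jun, which pairs with Fos in the factor AP-1, had a difference of 0.86 (SE 0.33) and Fos one of 0.62 (SE 0.27), both on the higher side in 3 of 3 pairs with an edgeR adjusted p of 0.872. Junb, another AP-1 subunit, was on the lower side in 3 of 3 pairs, with a difference of -0.86 (SE 0.22, edgeR adjusted p = 0.479), with lung at 991 to 1363 CPM and spleen at 306 to 960 CPM. Ahnak, a very large scaffold protein, was at 171, 343 and 80.2 CPM in lung and 64.4, 78.2, 39.7 and 61.2 CPM in spleen (difference -1.65, SE 0.39, edgeR adjusted p = 0.381). Cd24a, high on transitional B cells, differed by 0.88 (SE 0.37, edgeR adjusted p = 0.872).

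**Figure D3:**
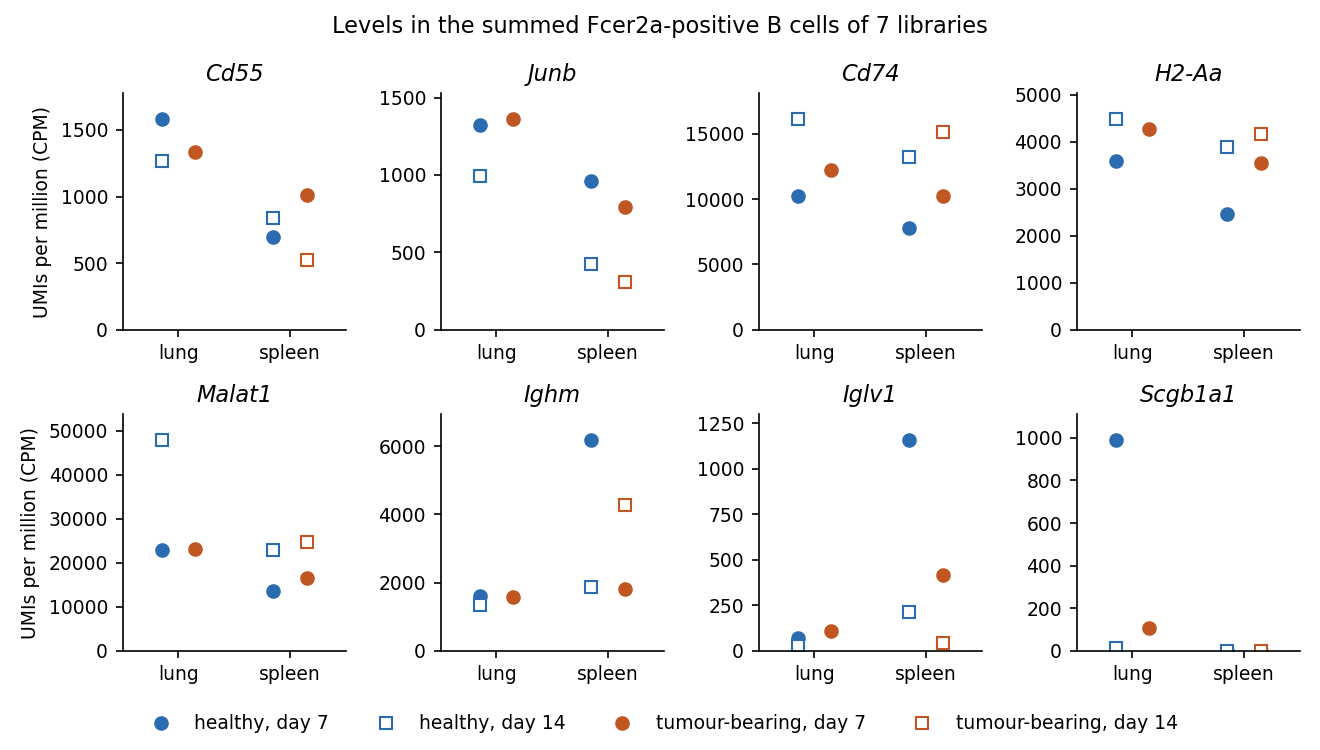
Levels of 8 genes in CPM (vertical axes, each from 0) in the summed Fcer2a-positive B cells of 7 libraries; filled circles are day 7, open squares day 14, blue healthy, orange tumour-bearing. Cd55 was at 1270 to 1584 CPM in lung and 525 to 1010 CPM in spleen and did not pass (edgeR adjusted p = 0.796). Scgb1a1 was at 991 CPM in 1 lung library, and Ighm and Iglv1 were highest in the healthy spleen of day 7.

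A handful of spleen cells carried transcripts of antibody secretion and division. Igj had 0 UMIs in the gated lung cells and 522, 39, 22 and 25 UMIs in healthy spleen of days 7 and 14 and tumour-bearing spleen of days 7 and 14. Of these, 516, 33, 10 and 25 lay in 1 barcode each. The barcode with 516 Igj UMIs held 18753 UMIs in all, with 799 of Ighm, the heavy chain of IgM, 82 of Mzb1, which helps IgM assemble, 15 of Xbp1, the factor that expands the secretory apparatus, and 101 of Mki67, but 1 of Fcer2a and 18 of Cd74. The barcode of the tumour-bearing spleen of day 14 was alike, with 402 Ighm, 50 Mzb1, 12 Xbp1 and 1 Fcer2a UMIs among 7958. No doublet caller was run here, and whether such barcodes hold 1 cell or 2 was not tested. Summed over libraries, Igj in spleen was at 680 CPM, 46.2-fold above the 14.7 CPM that 3 counts would give in lung. Without the top barcode it was at 105 CPM, 7.15-fold above. Most Igj UMIs lay in few barcodes, so neither fold is a lower bound on the difference. Igj did not pass the test (edgeR adjusted p = 0.381), nor did Ighm (difference 1.32, SE 0.40, edgeR adjusted p = 0.796). Ighm in the healthy spleen of day 7 was at 6193 CPM with its top barcode and 1516 CPM without it. In the tumour-bearing spleen of day 14 it was at 4276 CPM with and 761 CPM without, against 1347 to 1595 CPM in the lung libraries tested.

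Mki67, a marker of dividing cells, had 2 UMIs in the lung libraries tested and 309 in spleen, a ratio of 35.2 per UMI (counting interval 9.67 to 292; edgeR adjusted p = 0.241). It lay in 4 of 72, 5 of 269, 4 of 178 and 7 of 114 gated cells of healthy spleen at days 7 and 14 and tumour-bearing spleen at days 7 and 14. In the healthy spleen of day 7, 2 cells held 101 and 80 of its 185 UMIs. The counting interval takes UMIs as independent and does not cover such clustering in few cells. Cells with 5 or more UMIs summed over Mki67, Top2a, Birc5, Ccnb2 and Cdk1 numbered 3 of 72, 2 of 269, 1 of 178 and 4 of 114 in these spleens. Of the 200 gated lung cells 0 were of that kind, which allows a share of up to 1.5%. Depth was not matched in these counts.

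The second comparison asked whether the gated cells differed between tumour-bearing and healthy mice. In the same model 1 of 2373 genes (0.0421%) passed, and with day left out edgeR called 0 genes (57 at an unadjusted p under 0.05). Wfdc17, a small secreted protein of myeloid cells, stood at 160, 53.0 and 726 CPM in tumour-bearing lung of day 7 and tumour-bearing spleen of days 7 and 14. In healthy mice it stood at 22.8 and 25.4 CPM in lung and 11.7 and 65.2 CPM in spleen, at days 7 and 14. The groups overlapped, and Wfdc17 was higher in 3 of 3 matched pairs (log2 difference 3.53, SE 0.53, edgeR adjusted p = 0.0383). It was found in 18 of 114 gated cells of the tumour-bearing spleen of day 14, and the untested lung of that day had 811 CPM. The call was lost with all shared barcodes left out (edgeR adjusted p = 0.0852) and without the healthy spleen of day 14 (0.251). The gene had too few counts to be tested without the tumour-bearing spleen of day 14 or the tumour-bearing lung of day 7, and when barcodes with more than 1 UMI of Cd3d, Trbc2, S100a8, S100a9 or Lyz2 were left out.

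Of the 4 genes next in rank, none of which passed, 2 were neutrophil genes. S100a9 and S100a8 had log2 differences of 4.42 (SE 0.87, edgeR adjusted p = 0.251) and 4.62 (SE 0.95, edgeR adjusted p = 0.256). Their summed level in gated cells was 547 and 1207 CPM in healthy lung of days 7 and 14, and 170 and 316 CPM in healthy spleen. In tumour-bearing mice it was 1496 and 10288 CPM in lung and 957 and 50071 CPM in spleen. T cell barcodes of the same libraries, which should make neither gene, showed 12716 and 29292 CPM in tumour-bearing lung and 1764 and 59225 CPM in tumour-bearing spleen, so the gated cells were below the T cells of their own library in those 4. In healthy mice the T cells showed 219 and 180 CPM in lung and 148 and 1005 CPM in spleen, and the gated cells were above them in 3 of 4 libraries. That count rests on few UMIs. In the healthy lung of day 14 the top 2 counts per barcode were 30 and 9 of 41 S100a8 UMIs. For S100a9 they were 28 and 16 of 54. The healthy spleen of day 7 held 17 UMIs of S100a8 and 12 of S100a9. Over all kept barcodes of the 4 tumour-bearing libraries the levels were 46603, 116450, 20744 and 134422 CPM. Of 11 neutrophil genes listed, 2 were tested and 0 passed, beside 0.0421% of all 2373 genes. The summed list was at 222 to 1296 CPM in the 4 healthy libraries and at 1192 to 64701 CPM in the 4 tumour-bearing ones. Lyz2 had a difference of 2.00 (SE 0.63, edgeR adjusted p = 0.862). How much of any difference by status rests on myeloid transcripts in these barcodes was not tested beyond these values.

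**Figure D4:**
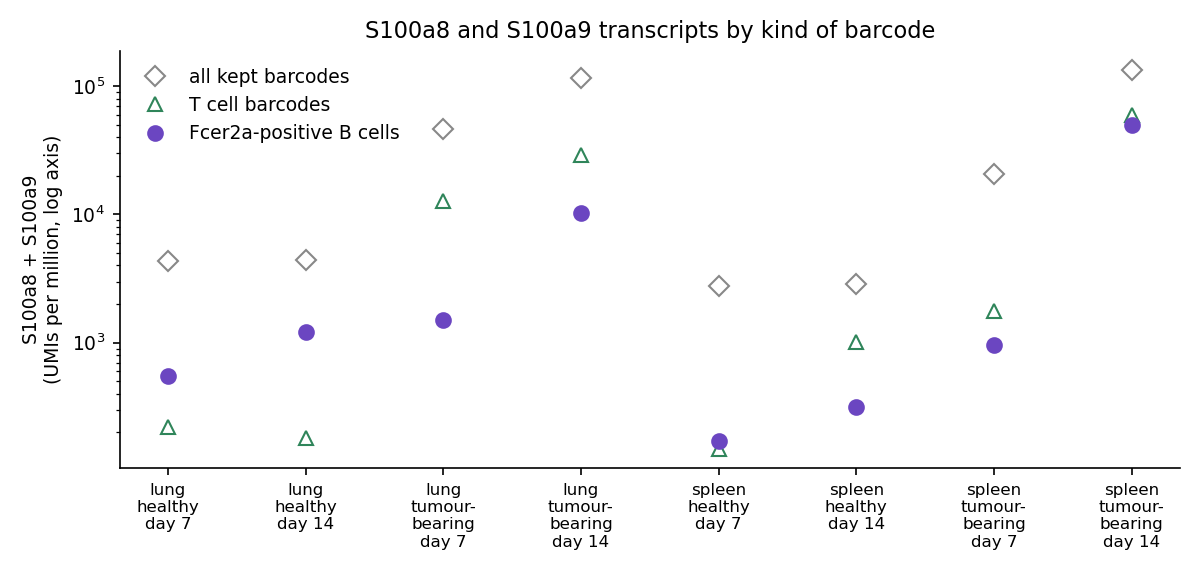
Summed level of S100a8 and S100a9 in CPM (vertical log axis) in all kept barcodes, in T cell barcodes and in Fcer2a-positive B cells of the 8 lung and spleen libraries of days 7 and 14. In the 4 tumour-bearing libraries the B cells (957 to 50071 CPM) lay below the T cells (1764 to 59225 CPM) of the same library. In 3 of the 4 healthy ones the B cells lay above the T cells. In the healthy lung of day 14 most of these UMIs came from few barcodes.

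B cell genes held no call by status, as did nearly all of the 2373 genes, of which 0.0421% passed. Of the listed genes tested, 0 of 17 of B cell receptor signalling, 0 of 11 of the follicular list, 0 of 10 of MHC class II, 0 of 8 of MHC class I, 0 of 4 of the interferon response and 0 of 8 of activation passed in edgeR, with 1, 1, 1, 0, 1 and 3 at an unadjusted p under 0.05. MHC class II had 9 of 10 members on the higher side in tumour-bearing mice with a median of 0.31, beside -0.01 over all genes. Cd74, for example, differed by 0.31 (SE 0.12, edgeR adjusted p = 0.983). Cd83, which stabilises surface MHC class II and marks activated B cells, was at 171 and 114 CPM in healthy lung of days 7 and 14, 294 CPM in tumour-bearing lung of day 7, 87.8 and 163 CPM in healthy spleen and 229 and 245 CPM in tumour-bearing spleen. The tumour-bearing lung of day 14, which was not tested, had 50.7 CPM from 1 UMI. The fitted difference was 1.01 (SE 0.33, edgeR adjusted p = 0.862). Cd69, an early activation antigen that keeps lymphocytes in tissue, differed by -1.03 (SE 0.38, edgeR adjusted p = 0.942). Gm10073 differed by -1.77 (SE 0.39, edgeR adjusted p = 0.338), and Scgb1a1 by -3.15 (SE 0.70, edgeR adjusted p = 0.546), the latter from the healthy lung of day 7.

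The difference of the tumour effect between spleen and lung was tested as an interaction. Of 3209 genes 0 passed in edgeR (0%), with 130 at an unadjusted p under 0.05, and 0 passed in DESeq2 (15 at an unadjusted p under 0.05). The fit had 2 residual degrees of freedom and a single tumour-bearing lung library. The lowest p-values belonged to Il1b (4.38, SE 1.11), Hbb-bs (3.10, SE 0.78), Hba-a2 (3.87, SE 1.07), Gm8730 (2.52, SE 0.72) and Ankrd32 (-3.62, SE 1.06), each with an edgeR adjusted p of 0.988. Il1b is a myeloid cytokine and Hbb-bs and Hba-a2 encode haemoglobin chains. Without the tumour-bearing spleen of day 7 edgeR called 12 genes, without that of day 14 it called 4, and without the healthy spleen of day 14 it called 1.

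The last comparison set the gated cells beside the other B cells of the same library, those that met the gate but for a count of 0 for Fcer2a. A count of 0 does not show that a cell lacks the transcript. Both sets were thinned to 400 UMIs per cell and summed in 7 libraries, 31 to 263 positive and 51 to 298 negative cells in each. Before thinning the positive cells were deeper in each of these libraries, for instance with medians of 1714 and 768 UMIs in the healthy spleen of day 7. The library was a block in the model, and the gate genes were not tested. Of 921 genes 17 (1.85%) passed in edgeR, 7 higher (0.76%) and 10 lower (1.09%) in Fcer2a-positive cells. Higher were Zfp318, Stap1, Cd55, Mef2c, Zfp36l1, mt-Rnr1 and Cd74. In that order they passed under 18, 15, 12, 13, 8, 14 and 9 of 24 alternatives. Among these the fit without day 21 repeats the main fit, since no library of day 21 entered it. With 3 of the 6 B cell genes required in both sets, edgeR called 1 gene higher and 1 lower. DESeq2 called 0 genes higher, as did edgeR without the healthy spleen of day 14. Lower were Ighm, Plac8, Ahnak, Crip1 and Igj, and with them 3 haemoglobin genes and the neutrophil gene Camp. With the library left out of the model 1 gene passed, Plac8.

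Zfp318 is required for the long transcripts from which mature B cells make IgD. It was higher in positive cells in 7 of 7 libraries, from 364 to 1048 CPM against 236 to 551 CPM in negative cells (log2 difference 0.79, SE 0.18, edgeR adjusted p = 0.00767). Stap1, an adaptor that binds the kinase Tec in B cells, was higher in 6 of 7, at 347 to 825 CPM against 328 to 481 CPM (0.79, SE 0.17, adjusted p 0.00767 in edgeR). Cd55 was higher in 7 of 7 libraries, in healthy lung of days 7 and 14 and tumour-bearing lung of day 7 at 1700, 1452 and 1371 CPM against 993, 1360 and 1275 CPM, and in spleen at 631 to 1055 CPM against 540 to 655 CPM (0.50, SE 0.12, edgeR adjusted p = 0.025). Mef2c, a transcription factor of B cell receptor responses, was higher in 6 of 7 (0.48, SE 0.13, edgeR adjusted p = 0.0413), and Zfp36l1, an RNA-binding protein that restrains cell division, in 7 of 7 (0.42, SE 0.11, edgeR adjusted p = 0.0413). Cd74 rose by a small step, 0.20 (SE 0.06, edgeR adjusted p = 0.0462), in 6 of 7 libraries, and 7 of 7 MHC class II genes tested were on the higher side, 1 of them past the test, with a median of 0.20 beside -0.02 over all genes. The mitochondrial ribosomal RNA mt-Rnr1 was also higher, in 6 of 7 (0.33, SE 0.08, edgeR adjusted p = 0.0212).

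Plac8, a small cysteine-rich protein, passed most often across settings. It was lower in positive cells in 7 of 7 libraries, at 80.6 to 382 CPM against 361 to 802 CPM (log2 difference -1.41, SE 0.22, edgeR adjusted p = 3.28e-05). Plac8 passed under 24 of 24 alternatives, of which the fit without day 21 repeats the main fit. Ighm was lower in 7 of 7, at 1262 to 1910 CPM against 1500 to 3703 CPM (-0.78, SE 0.10, edgeR adjusted p = 9.41e-07). That call was lost when 3 of the 6 B cell genes were required (adjusted p 0.0586 in edgeR) and without thinning (0.821), and with the library left out of the model (0.174), and it held with barcodes carrying Igj left out, at -0.42 (0.0202). Ahnak was lower in 7 of 7 libraries (-1.38, SE 0.38, edgeR adjusted p = 0.0449). In lung the negative cells held 294, 680 and 539 CPM and the positive ones 50, 215 and 80.6 CPM. The order is healthy of days 7 and 14 and tumour-bearing of day 7. In spleen the negative cells held 142, 126, 80.2 and 74.2 CPM and the positive ones 139, 38.0, 44.4 and 72.8 CPM. The order there is healthy of days 7 and 14, then tumour-bearing of days 7 and 14. The healthy spleen of day 7 and the tumour-bearing spleen of day 14 were thus nearly tied. The Ahnak call was lost under 12 of 21 alternatives. Crip1, a LIM domain protein, was lower in 7 of 7 (-0.56, SE 0.16, edgeR adjusted p = 0.0449) and passed under 8 of 24 alternatives. Igj was lower by -2.31 (SE 0.38, edgeR adjusted p = 0.000141), in 4 of 7 libraries and higher in 1, the healthy spleen of day 7 with its single Igj-rich cell. Over all libraries and before thinning, Igj was detected in 3.18% of positive and 2.88% of negative cells. Of the 1591 Igj UMIs of negative cells, the top cells held 386 and 292, so the difference rests on few cells.

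**Figure D5:**
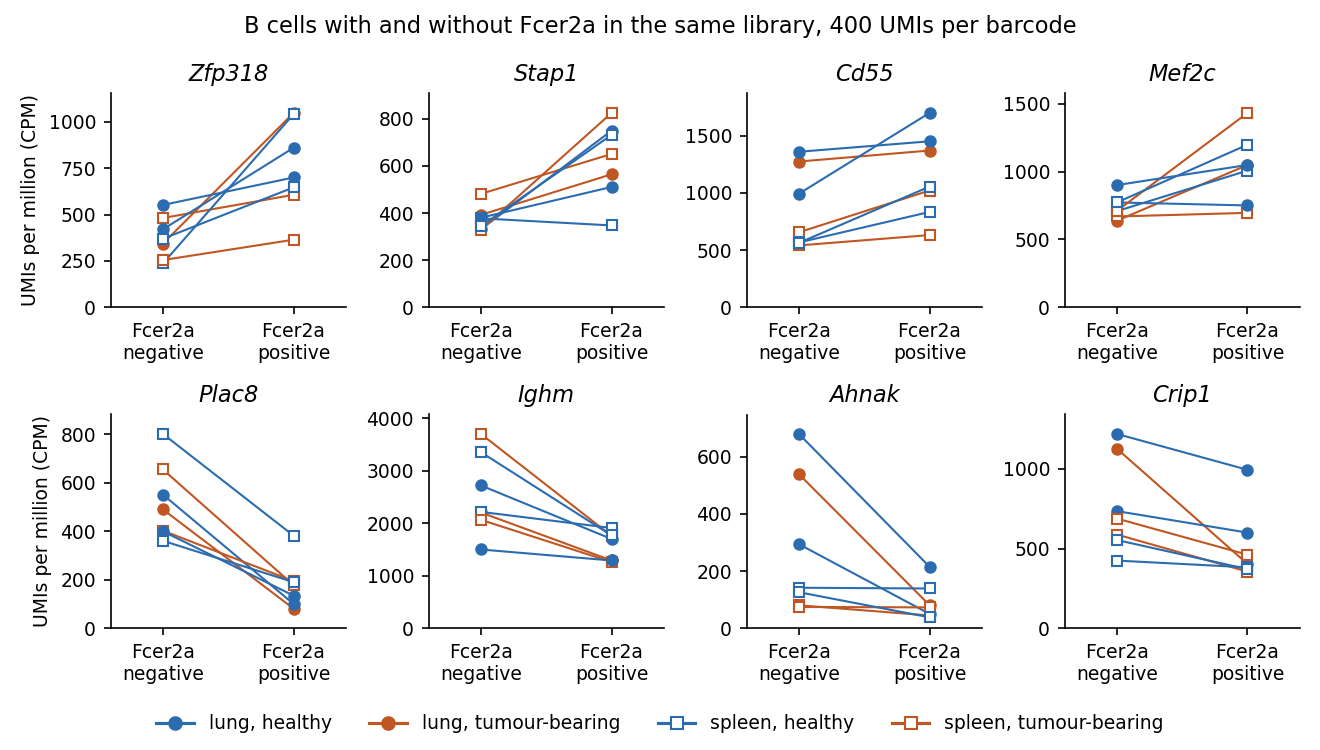
Levels of 8 genes in CPM (vertical axes, each from 0) in B cells without and with Fcer2a transcripts, each cell thinned to 400 UMIs. Lines join the 2 sums of 1 library (circles lung, squares spleen, blue healthy, orange tumour-bearing). All 7 lines rise for Zfp318 and Cd55 and fall for Plac8, Ighm, Ahnak and Crip1. For Ahnak the lines of the healthy spleen of day 7 and the tumour-bearing spleen of day 14 are nearly flat.

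Some of these differences belonged to genes of other cells. Hbb-bs, Hba-a1 and Hba-a2, the haemoglobin genes of red blood cells, were lower by -1.30, -1.42 and -1.32 (edgeR adjusted p = 0.000809, 0.00204 and 0.0449), in 6, 7 and 6 of 7 libraries. Camp, a granule protein of neutrophils, was lower by -0.99 (SE 0.24, edgeR adjusted p = 0.0228), in 3 of 7 libraries and higher in 1. Its level was 1675 CPM in positive and 2786 CPM in negative cells of the tumour-bearing spleen of day 14 and 0 to 348 CPM elsewhere. Malat1 differed by -0.19 (SE 0.05, edgeR adjusted p = 0.0449). When cells with more than 1 UMI of Cd3d, Trbc2, S100a8, S100a9 or Lyz2 were left out, 6 genes passed, 5 of them among the 17: Plac8, Ighm, Crip1, Zfp318 and mt-Rnr1. The other was Cd24a, named here after its values were seen, which did not pass among all cells (-0.79, SE 0.24, edgeR adjusted p = 0.0827). Without the healthy spleen of day 14, the library with the most gated cells, 4 genes passed (Plac8, Ighm, Hbb-bs and Hba-a1), without the tumour-bearing spleen of day 14, 8, and without the healthy lung of day 7, 7.

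Several lists held no called gene between Fcer2a-positive and Fcer2a-negative cells in edgeR, beside 1.85% of all genes tested, a share at which lists this short can hold none. Homing genes gave 0 of 8 tested (2 at an unadjusted p under 0.05). Activation genes gave 0 of 3 (1 at an unadjusted p under 0.05), with Cd83 on the higher side in 7 of 7 (0.97, SE 0.35, edgeR adjusted p = 0.206). Survival genes gave 0 of 3, interferon genes 0 of 3, immediate early genes 0 of 13 and division genes 0 of 3, none of them at an unadjusted p under 0.05. Ribosomal protein genes gave 0 of 77, with 9 at an unadjusted p under 0.05, 13 on the higher side and a median of -0.09. The follicular list had 1 called member of 9 tested, Cd55, with a median of 0.29 and 7 of 9 on the higher side. B cell receptor genes had 1 of 13, Ighm, which was lower, and B cell transcription factors 1 of 9, Mef2c. Of the 17 genes called, 12 have starts in the RefSeq table, and 1 of their 15 stretches, a Plac8 start, held a STAT6 palindrome.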

How the data were processed

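Drop-seq UMI counts per gene and barcode were deposited by the authors for lung, spleen and scaffold, 18 libraries of 292765 to 4530115 UMIs. The submitters' processing notes name mm10 and Seurat 2; no aligner, annotation or barcode caller is named there. Groups came from the labels, and day, which the labels match between groups, paired the libraries. No doublet caller was run here.

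Barcodes were kept with 200 or more genes, under 20% mitochondrial UMIs and, where shared within a day, 5 times the UMIs of the next library. The gate of the report was applied, and the members and gene lists were chosen with earlier results of these data known. Shares were compared over libraries with exact permutation tests and given Clopper-Pearson 95% intervals; a count of 0 was given the limit that 3 counts allow. These cover counting error only.

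Counts were summed over gated barcodes in libraries with 20 or more, normalized by TMM, filtered with filterByExpr and tested with edgeR 4.0.16 (quasi-likelihood, R 4.3.3; Benjamini-Hochberg over all genes tested, threshold 0.05) with tissue, status and day as terms. The interaction used the same sums. Positive and negative B cells were thinned to 400 UMIs and compared with library as a block. DESeq2 1.42.0, other normalizations, filters, gates, barcode rules, thinning, no block and leaving out each library were alternatives; those on the absence of a barcode rule, thinning of the gene sums, Igj and single libraries were chosen after seeing the data. Leaving out day 21 repeated the main gene fits, since no library of that day entered them, and it is counted among the alternatives. Each fit was tested on simulated counts with known changes. Named genes were up to 8 called genes per direction with the largest change, of 30 or more UMIs and alike in all but 1 pair, called members of the lists and leading members of lists without a call; with fewer than 5 calls, the 5 with the lowest p. Python 3.11.15, numpy 2.4.6, scipy 1.17.1 and matplotlib 3.10.9 were used. Promoter letters came from RefSeq GRCm38.p6.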

Additional observations from a re-analysis of the deposited data

How the results depend on the processing

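The gate share kept its direction under all 11 alternatives in each comparison, at 5.97 to 9.34 points for spleen minus lung and -7.26 to -4.10 for tumour-bearing minus healthy, and at 4.35 to 11.0 and -8.97 to -2.19 with a day left out. The thinned Fcer2a share of B cells had no stable direction. Spleen minus lung was -0.639 with barcodes alike in 11 bases reduced to 1, and -0.0669 to 5.01 with a day left out. Tumour-bearing minus healthy was -1.45 with all shared barcodes left out, -1.02 with no rule on them, -2.04 with no more than 1 UMI of T cell and myeloid genes, -9.45 thinned to 800 UMIs, -3.40 not thinned, and 0.267 to 4.18 with a day left out.

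Counts of called genes moved most. For spleen against lung (3 genes) they were 1 with 400 genes per barcode, 1 with 3 B cell genes, 7 with no more than 1 UMI of T cell and myeloid genes, 25 without a filter on low counts, 12 with sums of 10 or more barcodes, 1 thinned, 0 without the replicate block, and 0 to 13 with a library or day left out. For tumour-bearing against healthy (1 gene), in the same order but for the 400 genes, they were 0, 2, 52, 15, 2 and 0, with 0 when all shared barcodes were left out and 0 to 7 with a library or day left out. The difference between tissues (0 genes) gave 2 with no more than 1 UMI of T cell and myeloid genes, 4 without a filter, 0 without the replicate block, and 0 to 12 with a library or day left out. Fcer2a-positive against negative cells (17 genes) gave 2 with 3 B cell genes, 6 with no more than 1 UMI of T cell and myeloid genes, 11 without Igj barcodes (9 of the 17), 2 with DESeq2, 39 not thinned (10 of the 17), 1 without the replicate block, and 4 to 19 with a library or day left out. Among single genes, Lyz2 by status turned to -0.18 with no more than 1 UMI of T cell and myeloid genes and ran from -0.13 to 2.46 with a library or day left out. Hbb-bs between tissues turned to -0.24 with sums of 10 or more barcodes, which added the tumour-bearing lung of day 14. In that library 1 barcode held 190 of 195 Hbb-bs UMIs. Camp in positive cells turned to 0.11 with 3 B cell genes. The cause of these moves was not tested.

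Models of summed gated cells without day 7, and of the difference between tissues without day 14 or the tumour-bearing lung of day 7, could not be fitted. With 18 to 269 gated cells in the libraries of days 7 and 14 and medians of 654 to 1714 UMIs, genes of low level were below the filter.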
